A study of Mus musculus with 672 samples.

Results

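All-lymphoid progenitors (ALPs) without Mbd3 were compared with control ALPs, over all genes counted in single sorted cells. The cells were the 336 ALP columns of a table of 672 cells, named by genotype in the column titles. To be kept, a cell needed 50000 or more counts on nuclear genes and 1000 or more nuclear genes read, with spike-ins at 50% or less and mitochondrial genes at 20% or less. By these limits 235 ALPs remained, of 561 cells in the whole series. Kept cells were summed per mouse. The replicate is therefore the mouse, with 2 on each side.

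Both control mice (18218 and 18220) carried floxed Mbd3 alleles (Mbd3 flox/flox) and both null mice (18217 and 18219) carried deleted alleles (Mbd3 del/del). All 4 mice were 7 weeks old and of C57BL6/129Ola background, and no other allele or agent is named in the labels. The sources used here do not give the Cre line, the cells in which it acted or the exons removed. ALPs were sorted from the marrow of femurs and tibiae as lineage-negative cells with Sca-1, c-Kit, high Flt3 and IL-7 receptor alpha on the surface, and without Ly6D and B220. The same 4 mice also gave lymphoid-primed multipotent progenitors (LMPPs), the population before ALPs, and BLPs, the lymphoid progenitors biased to the B cell fate that come after them and carry Ly6D.

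ALPs are early bone marrow progenitors that can still form B, T, natural killer (NK), innate lymphoid and some dendritic cells. Entry into the B lineage depends on a small circuit of transcription factors. E2A (Tcf3) and Foxo1 help to switch on Ebf1, Ebf1 opens B lineage chromatin and activates Pax5, and Pax5 commits the cell and represses other fates. Mbd3 is a core subunit of NuRD, a complex that joins nucleosome remodelling by Chd4 to removal of histone acetyl groups by Hdac1 and Hdac2. NuRD acts at enhancers and promoters of active and silent genes.

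The 4 summed ALP libraries held 62979255 to 122514230 gene counts from 40 to 79 cells. Mice 18218 and 18217 kept 74 and 79 of 84 ALPs, and mice 18220 and 18219 kept 40 and 42 of 84. Among cells left out, the median spike-in share was 23.6% to 80.0% per mouse. Median nuclear counts per kept cell were higher in control mice (1586214.5 and 1702258.5) than in null mice (1079924 and 1285444), so shares of cells with a read were taken after each cell was thinned to 50000 nuclear counts. Levels are CPM, read counts scaled to the size of the summed library. A count is a read, and the largest single cell held a median of 19.1% to 28.4% of a gene's reads per library. In summed libraries, fewer cells with a transcript and less of it per cell cannot be told apart. The ALPs of mice 18217 and 18218 share 1 set of column runs in the table and those of mice 18219 and 18220 another, so each set holds 1 mouse of each genotype.

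Mbd3 (chr10:80392539-80399550, GRCm38) stood at 99.1 and 102.5 CPM in control mice 18218 and 18220 and at 2.88 and 0.352 CPM in null mice 18217 and 18219. Reads of it were found in 67.6% and 45% of control ALPs and in 5.06% and 2.38% of null ALPs. Transcripts of the gate were read in both genotypes, at levels that differed for some genes. Flt3 stood at 979 and 1019 CPM in control and at 805 and 817 in null ALPs, and Il7r at 622 and 874 against 608 and 546. Kit was read in 52.7% and 55% of control and in 74.7% and 71.4% of null ALPs, at 61.9 and 137 against 128 and 136 CPM. Ly6a, which encodes Sca-1, was read in 35.1% and 30% of control and in 54.4% and 50% of null ALPs. The shares of Kit and Ly6a did not overlap between genotypes, and neither passed limma. Ly6d, whose protein the gate excludes, was read in 35.1% and 37.5% of control and in 40.5% and 38.1% of null ALPs. The Mbd3 difference did not pass edgeR (log2 fold change -5.95 ± 1.88, adjusted p = 1) or limma on shares (adjusted p = 0.432). None of the other 16 NuRD subunits on the list passed either. Chd4 stood at 187 and 146 CPM in control and 171 and 164 in null ALPs, and Mbd2, the paralog that forms its own NuRD complex, at 33.5 and 27.5 against 41.3 and 25.3.

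Markers of some other cell types were low and those of others were not, with differences between genotypes in some lists. Of 5 stromal markers all were under 1 CPM in every library, and of 4 megakaryocyte markers 3 were. The 6 macrophage markers summed to 10.4 and 7.01 CPM in control and 39.3 and 81.4 in null ALPs, mostly Cd68, with Adgre1 at 0 and C1qc and Vcam1 under 1 CPM. The 8 neutrophil and monocyte markers summed to 440 and 241 against 869 and 768 CPM, mostly Mpo, with Elane, S100a8 and S100a9 under 1 CPM. The 7 T cell markers summed to 273 and 413 against 141 and 178 CPM, mostly Lck. The 5 plasmacytoid dendritic markers summed to 777 and 1344 against 563 and 739 CPM. At least 3 of them were read in 83.8% and 65% of control and 63.3% and 71.4% of null ALPs. The 4 plasma cell markers summed to 330 and 356 against 221 and 206 CPM, mostly Sdc1 and Xbp1. The 8 NK and innate lymphoid markers summed to 442 and 383 against 424 and 454 CPM, mostly Nkg7. The part of other cell types in the results was not tested.

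Across 19903 genes, 1 passed the edgeR quasi-likelihood test on summed counts at a Benjamini-Hochberg adjusted p under 0.05 (0.00502%), and it was Ebf1. At an unadjusted p under 0.05 there were 896 genes (4.5%). Both null mice lay above both control mice in CPM for 17.1% of genes tested and below both for 17%. Shares of ALPs with a read at equal depth were compared for 11953 genes with limma on the arcsine scale. Of these, 4 passed (0.0335%), with Apoe, Txn1 and Tspan13 higher and Ablim1 lower, and 481 had an unadjusted p under 0.05 (4.02%). Shares did not overlap between genotypes for 32.5% of genes, with both null mice above both control mice for 14.7% and below both for 17.8%. With 2 mice a side, a single value compared by an exact permutation test cannot reach a p below 0.33. Only the mice are replicates here.

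**Figure D1:**
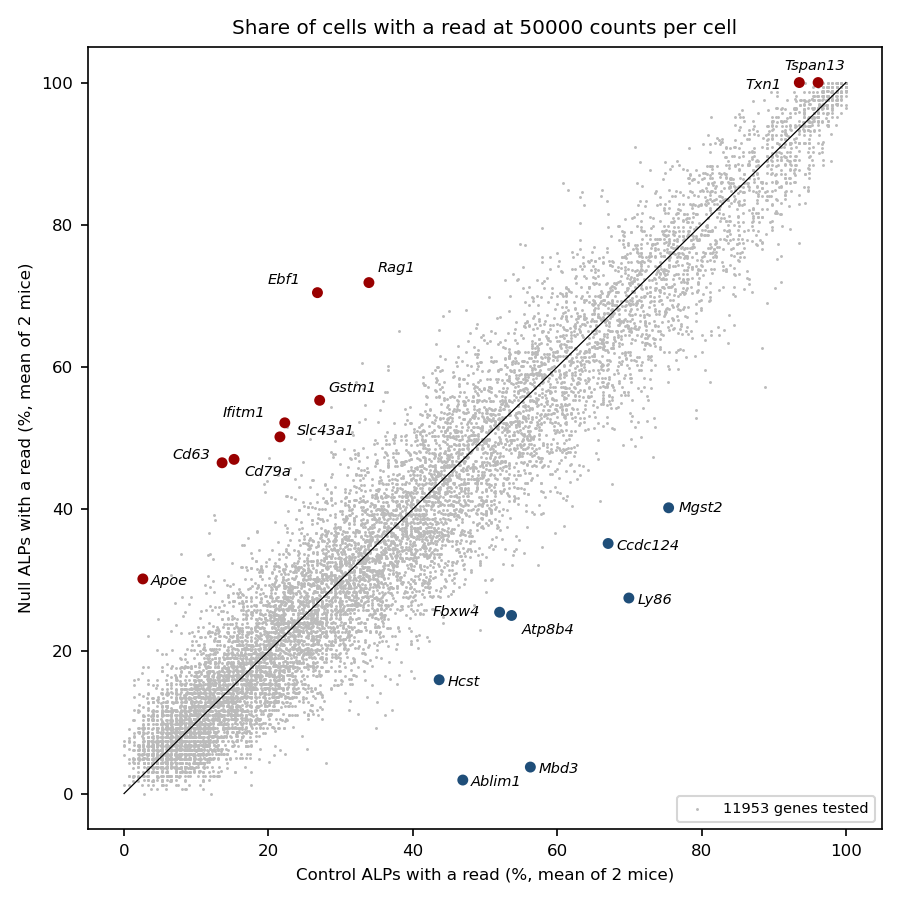
Mean share of ALPs with at least 1 read, in percent of cells at 50000 counts per cell, in control mice (x axis) and null mice (y axis). Each grey point is 1 of 11953 genes, and coloured points are the named genes, red where the mean is higher in null mice and blue where it is lower. The line marks equal shares. Ebf1, Rag1 and Cd79a lie far above the line, and Ablim1 and Mbd3 lie near 0 on the y axis.

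Ebf1 (chr11:44617317-45008091, plus strand), the factor that opens the B lineage programme, rose 8.31-fold in null ALPs. It stood at 24.7 and 19.9 CPM in control mice 18218 and 18220 and at 154 and 217 CPM in null mice 18217 and 18219. The groups did not overlap. The log2 fold change was 3.06 ± 0.26 (approximate SE, edgeR adjusted p = 0.0260). Ebf1 was read in 31.1% and 22.5% of control ALPs and in 67.1% and 73.8% of null ALPs. That share difference did not pass limma (adjusted p = 0.963). Of 14 alternatives for shares, it passed only when a cell needed at least 3 reads to count (limma adjusted p = 0.0314). The shares were then 18.9% and 10% of control and 53.2% and 64.3% of null ALPs. Over the alternatives the difference ran from 18.6 points, without thinning, to 48.0 points. No single cell held more than 13.9% of the Ebf1 reads of a null library. In control mice 18218 and 18220, 1 cell held 24.4% and 43.7% of them. With the highest cell of each gene left out, the log2 fold change was 3.47 and the call was lost (edgeR adjusted p = 0.0502).

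The Ebf1 call ended when any 1 mouse was left out (adjusted p = 0.669 to 1), with log2 fold changes of 2.79 to 3.28. Its adjusted p over 16 alternatives ran from 6.10e-26 to 1, and its log2 fold change from 2.65 to 3.47.

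Rag1, which with Rag2 cuts antigen receptor genes, stood at 46.1 and 24.2 CPM in control ALPs and 176 and 243 in null ALPs. Both null mice were high and the groups did not overlap, with a log2 fold change of 2.57 ± 0.44 that did not pass (edgeR adjusted p = 0.773). Reads of Rag1 were found in 37.8% and 30% of control ALPs and in 74.7% and 69.0% of null ALPs. Rag2 was high in both genotypes, at 222 and 142 CPM in control and 207 and 253 in null ALPs. Its groups overlapped.

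The 250 bases before the start of Ebf1 and of Rag1 are shown because these genes gave the widest gain in cells at equal depth, and those of Ablim1 because it gave the widest loss after Mbd3. Each is from RefSeq, build GRCm38.p6, 5′ to 3′ on the gene's own strand, and lies before a RefSeq transcript start. The RefSeq start of Ebf1 lies inside the gene interval given above, which is from another annotation. CG dinucleotides, the sites of DNA methylation that give the methyl-CpG binding family its name, are in capitals. The Ebf1 window lies at chr11:44619978-44620227 (plus strand), that of Rag1 at chr2:101649533-101649782 (minus strand) and that of Ablim1 at chr19:57314920-57315169 (minus strand).
Ebf1: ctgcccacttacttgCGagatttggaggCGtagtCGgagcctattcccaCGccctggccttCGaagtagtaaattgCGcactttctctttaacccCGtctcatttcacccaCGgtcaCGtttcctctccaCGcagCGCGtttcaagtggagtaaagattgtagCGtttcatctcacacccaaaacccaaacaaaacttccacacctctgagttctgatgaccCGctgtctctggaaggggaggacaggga
Rag1: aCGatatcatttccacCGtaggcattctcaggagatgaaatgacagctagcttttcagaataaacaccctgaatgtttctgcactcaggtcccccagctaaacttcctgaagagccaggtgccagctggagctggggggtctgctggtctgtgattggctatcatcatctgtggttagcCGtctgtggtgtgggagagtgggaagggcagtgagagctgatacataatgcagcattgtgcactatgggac
Ablim1: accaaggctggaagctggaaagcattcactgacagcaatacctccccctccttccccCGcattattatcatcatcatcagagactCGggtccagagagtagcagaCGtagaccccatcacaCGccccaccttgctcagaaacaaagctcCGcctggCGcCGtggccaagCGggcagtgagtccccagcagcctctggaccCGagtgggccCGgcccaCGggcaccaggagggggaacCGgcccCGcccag
The Ebf1 window holds 14 CG dinucleotides, the Rag1 window 3 and the Ablim1 window shown 13. Ablim1 has 5 windows in the table, with 2 to 13 CG dinucleotides, and the one shown is that before the outermost start. Over 32851 windows of the same length the median was 6 (quartiles 2 and 16), and over the 14582 windows of genes tested it was 14. An Ebf1-type core, CCCNNGGG (its own reverse complement, so 1 strand covers both), was found in 11.8% of all windows and 15.5% of those of genes tested. The Ablim1 window shown and 1 of its other 4 hold 1 such core each, and the Ebf1 and Rag1 windows hold none. Among early B lineage genes, 23 of 30 matched a window, and 4 of their 30 windows held the core (13.3%), those of Erg, Foxo1, Igll1 and Spib. These matches describe the letters only.

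Other members of the early B circuit differed in level by values that did not pass. Pax5, the commitment factor of B cells, stood at 0.267 and 1.51 CPM in control and 30.9 and 28.0 CPM in null ALPs. It was read in 0% and 5% of control ALPs and in 10.1% and 23.8% of null ALPs. Cd79a, a signalling chain of the pre-B and B cell receptor, stood at 15.1 and 0.941 CPM in control and 90.8 and 280 in null ALPs, with reads in 23.0% and 7.5% against 39.2% and 54.8% of cells. Null ALPs were above control ALPs in both mice for these genes. Foxo1, which acts upstream of Ebf1 and Rag1, stood at 22.8 and 24.8 CPM in control and 90.1 and 97.7 in null ALPs. Of the surrogate light chain genes, Vpreb2 stood at 4.69 and 0.180 CPM against 21.2 and 25.5, and Vpreb3 at 2.39 and 0.291 against 6.62 and 26.4. Vpreb2 is nearly identical to Vpreb1, so its reads are uncertain. Foxo1, Vpreb2 and Vpreb3 were chosen after their values were seen.

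Not every early B gene differed in this direction. Tcf3 stood at 132 and 166 CPM in control and 129 and 78.5 in null ALPs. Blnk, an adaptor of the B cell receptor, stood at 478 and 640 against 253 and 514, and Dntt, which adds bases at receptor joints, at 9223 and 8218 against 7830 and 8601. In Ikzf3 and Spib 1 control library stood above the rest, at 12.1 CPM for Ikzf3 in mouse 18220 and 3.05 CPM for Spib in mouse 18218, with at most 2.5% of ALPs read.

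**Figure D2:**
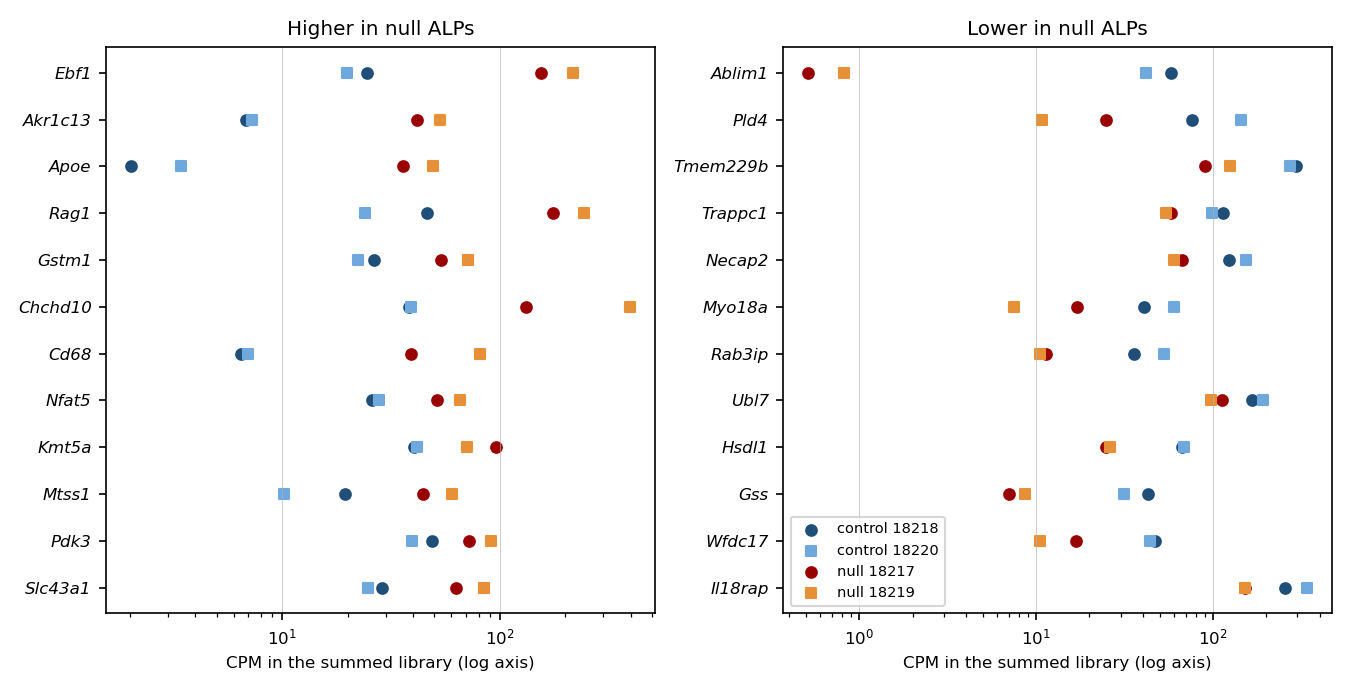
Level in each summed ALP library, in CPM on a log axis, of the 12 genes per direction with the smallest unadjusted p under the named-gene rule (higher in null at left, lower at right). Each point is 1 mouse, blue for control and red or orange for null. The groups are separated in each row because separation was part of the rule. Ebf1 and Ablim1 lead the rows of each direction.

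Up to 12 genes per direction were ranked by p where the mean over ALP libraries reached 20 CPM, and most of the 12 higher genes lay outside the B lineage. Apoe, a lipid carrier made by macrophages and other cells, was read in 2.70% and 2.5% of control ALPs and in 34.2% and 26.2% of null ALPs. That share rose by limma (adjusted p = 0.0489). Its level was 2.03 and 3.42 CPM in control and 36.0 and 49.6 in null ALPs, with a log2 fold change of 3.98 ± 0.57 (edgeR adjusted p = 0.314). In control mouse 18220, 1 cell held 96.8% of the Apoe reads. Macrophage markers other than Cd68 were near 0, as given above. The share call ended without any 1 mouse (adjusted p = 0.398 to 1) and with another random draw of the thinning (adjusted p = 0.146). It was also lost with mouse as a random replicate block (limma adjusted p = 0.0514) and with column layout as a block (0.0854).

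Cd68, a lysosomal membrane protein abundant in macrophages, stood at 6.45 and 6.96 CPM in control and 39.2 and 81.3 in null ALPs. Cd63, another protein of late endosomes and lysosomes, stood at 5.95 and 12.9 CPM against 36.5 and 51.0, with reads in 12.2% and 15% against 43.0% and 50% of cells. Cd63 has a near-identical pseudogene copy, so its counts are uncertain. Both genes were higher in both null mice without passing either test.

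Akr1c13 and Gstm1 encode enzymes that reduce or conjugate small molecules. Akr1c13 stood at 6.86 and 7.27 CPM in control and 41.8 and 53.4 in null ALPs, the smallest adjusted p by edgeR among the higher genes after Ebf1 (log2 fold change 2.75 ± 0.34, adjusted p = 0.179). It was read in 14.9% and 10% of control and 35.4% and 42.9% of null ALPs. Gstm1 stood at 26.6 and 22.4 CPM against 53.8 and 71.9, with reads in 39.2% and 15% against 58.2% and 52.4% of cells. Both belong to families with close paralogs, so reads may be shared among copies.

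Chchd10, a mitochondrial intermembrane space protein, stood at 38.2 and 39.2 CPM in control and 132 and 398 in null ALPs. Slc43a1, an amino acid transporter, stood at 28.9 and 24.8 CPM against 63.1 and 84.9. The rest of the 12 were Nfat5, the factor of the osmotic stress response (25.8 and 27.9 against 51.5 and 65.6 CPM), Kmt5a, which methylates histone H4 (40.2 and 41.9 against 96.3 and 70.6), Mtss1, a membrane-bending protein of the actin skeleton (19.5 and 10.2 against 44.4 and 60.3), and Pdk3, a kinase of pyruvate dehydrogenase (49.1 and 39.5 against 72.1 and 91.0). Log2 fold changes of these 6 genes ran from 0.88 (Pdk3) to 2.77 (Chchd10), and none passed. Ifitm1, an interferon-inducible membrane protein, had 1 of the 8 widest gains in share, with reads in 27.0% and 17.5% of control and 51.9% and 52.4% of null ALPs.

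Txn1 (thioredoxin) and Tspan13, a tetraspanin, were read in nearly all ALPs of either genotype. Txn1 shares were 94.6% and 92.5% in control and 100% and 100% in null ALPs (limma adjusted p = 0.00258). Tspan13 shares were 97.3% and 95% against 100% and 100% (limma adjusted p = 0.0151). The log2 fold change of Txn1 on summed counts was 0.05 ± 0.21. Both calls were lost with another random draw of the thinning (adjusted p = 1 for each). They were also lost without mouse 18217, 18219 or 18220, with limma adjusted p of 0.125 to 0.263 for Txn1 and 0.271 to 0.475 for Tspan13.

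Ablim1 (chr19:57032733-57314919, minus strand), an actin-binding LIM protein, was close to absent from null ALPs. It stood at 57.7 and 41.8 CPM in control mice 18218 and 18220 and at 0.514 and 0.815 CPM in null mice 18217 and 18219. Both null mice were near 0. Reads were found in 51.4% and 42.5% of control ALPs and in 3.80% and 0% of null ALPs, where 0 of 42 cells allows a share of up to 7.14%. The share fell by limma (adjusted p = 0.0489), and the log2 fold change of -6.23 ± 0.73 on summed counts did not pass (edgeR adjusted p = 0.174). Over 16 alternatives the log2 fold change ran from -7.70 to -5.94. The share call ended without any 1 mouse (adjusted p = 0.202 to 0.961) and with another random draw (adjusted p = 0.146). It was lost as well with mouse as a random replicate block (limma adjusted p = 0.0514). The share difference ran from -49.5 to -30.4 points over 14 alternatives.

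Pld4, an endolysosomal nuclease of dendritic and myeloid cells, stood at 76.1 and 143 CPM in control and 24.8 and 10.9 in null ALPs (log2 fold change -2.62 ± 0.46, edgeR adjusted p = 0.792). Ly86, the partner of the toll-like receptor homologue Cd180, stood at 229 and 393 CPM against 33.7 and 55.8, with reads in 64.9% and 75% against 24.1% and 31.0% of cells. Tmem229b, a membrane protein, stood at 294 and 273 CPM against 90.5 and 124. In all of these genes the lower control mouse stood above the higher null mouse.

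Il18rap, the accessory chain of the interleukin-18 receptor, stood at 256 and 340 CPM in control and 151 and 151 in null ALPs. Its partner chain Il18r1 stood at 48.1 and 64.0 against 11.8 and 14.9. Hcst, the adaptor DAP10 of activating receptors of killer cells, was read in 47.3% and 40% of control and 17.7% and 14.3% of null ALPs. Il18r1 was chosen after its values were seen. Wfdc17, a secreted protease inhibitor-like protein of myeloid cells, stood at 47.1 and 44.1 CPM against 16.9 and 10.5.

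Irf8, a factor required for dendritic and monocyte fates that is also active in lymphoid progenitors, stood at 776 and 1315 CPM in control and 165 and 321 in null ALPs. It was read in 85.1% and 82.5% of control and 63.3% and 71.4% of null ALPs. Siglech, a surface marker of plasmacytoid dendritic cells, stood at 124 and 202 CPM against 21.8 and 45.3, and was chosen after its values were seen. In CPM both were below control in both null mice, by log2 fold changes that did not pass, -2.10 ± 0.70 for Irf8. The shares of Siglech overlapped, at 43.2% and 27.5% of control and 13.9% and 28.6% of null ALPs.

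The rest of the 12 lower genes were Gss, which completes glutathione synthesis (43.1 and 31.5 against 7.01 and 8.63 CPM), Hsdl1 (66.8 and 68.3 against 24.8 and 26.1), Myo18a, an unconventional myosin (40.9 and 60.1 against 17.0 and 7.53), Rab3ip (35.8 and 52.6 against 11.4 and 10.5), Necap2, of clathrin-coated vesicles (123 and 153 against 66.8 and 59.8), Trappc1, of a vesicle tethering complex (114 and 99.2 against 57.6 and 53.9), and Ubl7 (167 and 191 against 112 and 97.1). None passed. Mgst2, Ccdc124, Fbxw4 and Atp8b4 were among the 8 widest losses in share. Mgst2, a microsomal glutathione transferase, was read in 78.4% and 72.5% of control and 30.4% and 50% of null ALPs.

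Gene lists were read by their counts and medians beside those of all genes tested, for which the median log2 fold change was 0 with 17.1% of genes apart and higher in null mice and 17% apart and lower. The early B lineage list had 30 of 30 members tested, with 21 higher and 9 lower in null ALPs and a median of 0.47. In CPM, 14 lay above both control mice (46.7%) and 4 below (13.3%). By share at equal depth, 16 of 26 tested lay above both control mice (61.5%) and 1 below. Only Ebf1 passed. The median was 0.11 without the ALPs of mice 18219 and 18220, and between 0.15 and 0.98 when 1 mouse was left out.

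Stem and multipotent genes leaned the same way in counts, with 17 of 22 tested higher, 9 apart above (40.9%) and 3 below (13.6%), and a median of 0.37. The median was 0.08 without the ALPs of mice 18219 and 18220. Fgd5, a gene of stem cells, was under 4 CPM in every library and was read in at most 5.06% of cells. Lmo2, a partner of stem cell factors, stood at 141 and 132 CPM against 173 and 214. Ly6a stood at 88.1 and 62.2 CPM in control and 89.4 and 403 in null ALPs. Markers of megakaryocytes and stroma were near 0, as given above.

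NK and innate lymphoid genes leaned lower in CPM, with 13 of 16 tested lower, 9 apart below (56.2%) and 1 above, and a median of -1.19. By share at equal depth, 4 of 11 tested were apart below (36.4%, against 17.8% of all genes) and 0 above. The sums of the 8 NK and innate lymphoid markers given above overlapped between genotypes. Of the list's 22 members, 6 were too low to be tested. Gata3, a factor of T, innate lymphoid and NK cells, stood at 14.4 and 23.3 CPM in control and 3.78 and 2.21 in null ALPs (log2 fold change -2.65 ± 0.75, edgeR adjusted p = 1). Itga4, the alpha chain of a homing integrin, stood at 335 and 401 CPM against 233 and 230. Zbtb16, the factor PLZF, stood at 0.881 CPM in control mouse 18218 and 38.4 in control mouse 18220, where it was read in 7.5% of cells, and at 0.00951 and 0.0479 CPM in null mice. Nkg7, the most abundant member, overlapped between genotypes (386 and 300 against 398 and 416 CPM). The median was -0.66 without mouse 18220, -0.50 when cells were thinned before summing and -0.41 without the ALPs of mice 18219 and 18220.

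T lineage genes and Notch targets had 14 of 19 tested lower, with a median of -0.90. In CPM 5 were apart below (26.3%, against 17% of all genes) and 4 above (21.1%, against 17.1%). By share at equal depth 2 of 7 tested were apart below and 2 above (28.6% each, against 17.8% and 14.7%). The mean number read per cell overlapped between genotypes, at 3.47 and 3.88 in control and 3.66 and 3.55 in null ALPs. Without mouse 18220 the median turned to 0.17. Cd3e stood at 13.4 CPM in that control library, with reads in 5% of cells, and at most at 0.00808 CPM in the other ALP libraries. Lck, a kinase of T cell receptor signalling also used before T commitment, stood at 261 and 335 CPM in control and 141 and 176 in null ALPs, and was chosen after its values were seen. Hes1, a Notch target, stood at 17.3 and 7.49 CPM against 26.6 and 69.8, the other way. Notch1 itself was 220 and 258 CPM in control and 265 and 293 in null ALPs.

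Mature B and plasma cell genes had 7 of 8 tested lower, 5 apart below (62.5%, against 17% of all genes) and none above, with a median of -1.41. The member Sdc1, a syndecan of plasma and pre-B cells, stood at 105 and 219 CPM in control and 86.5 and 93.5 in null ALPs. Ms4a1 was under 0.2 CPM in every library, and Cd22, Cr2 and Prdm1 were at most 1.73 CPM. The median thus rests in part on genes near 0. Only 3 members were read widely enough to be tested by share. Without mouse 18218 the median was -0.31, and with cells thinned before summing -0.71.

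Adhesion and homing genes had 13 of 18 tested lower in CPM, with 7 apart below (38.9%), 1 above and a median of -0.21. By share at equal depth 4 of 17 tested were apart below (23.5%, against 17.8% of all genes) and 2 above (11.8%, against 14.7%). The median share difference was 0. The mean number read per cell overlapped between genotypes, at 9.19 and 8.25 in control and 8.405 and 8.31 in null ALPs. Itgb2, the shared chain of leukocyte integrins, stood at 35.5 and 50.8 CPM in control and 17.2 and 13.7 in null ALPs. Cd44, the hyaluronan receptor, stood at 419 and 478 CPM against 272 and 165. Cd47 and Selplg were abundant in both genotypes, and none of the list passed.

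Genes of lymphoid priming had 11 of 16 tested lower, with a median of -0.06. In CPM 5 were apart below (31.25%, against 17% of all genes) and 3 above (18.75%, against 17.1%). By share at equal depth 1 of 16 was apart below (6.25%, against 17.8%) and 3 above (18.75%, against 14.7%). Cnn3, a calponin high in these progenitors, stood at 672 and 562 CPM in control and 418 and 345 in null ALPs (log2 fold change -0.70 ± 0.16, edgeR adjusted p = 1). Satb1 stood at 483 and 545 CPM against 650 and 563, and Sox4 at 55.7 and 92.2 against 69.4 and 77.8. The 18 genes of interleukin-7 receptor signalling had a median of 0.13, with 6 apart above (33.3%) and 5 below (27.8%) in CPM. By share 6 of 18 were apart above (33.3%) and 1 below (5.56%). Bcl2, a survival factor under this receptor, stood at 206 and 311 CPM against 169 and 103, and Myc at 548 and 560 against 666 and 791.

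Neutrophil and monocyte genes were split, with 8 higher and 8 lower of 16 and a median of -0.01. In CPM 5 were apart above (31.25%) and 3 below (18.75%), and by share 2 of 13 tested were apart above and 2 below. Mpo, the myeloperoxidase of granule precursors, stood at 421 and 182 CPM in control and 847 and 729 in null ALPs, and Csf3r, the G-CSF receptor, at 10.9 and 9.70 against 35.1 and 35.7. Ctsg, another granule protease, stood at 10.2 and 15.7 CPM against 80.2 and 74.4 and was chosen after its values were seen. Other members went the other way, among them Irf8, given above, and Lyz2. Lyz2, also chosen after its values were seen, was read in 62.2% and 42.5% of control and 38.0% and 40.5% of null ALPs. Dendritic and major histocompatibility class II genes were split as well, with 5 apart above and 5 below of 18 (27.8% each, against 17.1% and 17% of all genes). Cd74, the class II invariant chain, stood at 26.4 and 18.7 CPM against 77.5 and 118, and 1 cell held 77.5% of the reads in null mouse 18219.

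Cell cycle genes gave different pictures by sum and by cell. All 24 genes of G2 and M phase were lower in null ALPs by summed counts, with a median of -0.87. Of these 6 were apart below (25%, against 17% of all genes). Without mouse 18218 the median was 0.01. Tpx2, a spindle assembly factor, stood at 124 and 59.4 CPM in control and 59.3 and 30.7 in null ALPs. At equal depth the number of these 24 genes read in a cell had medians of 4 and 3 in control and 5 and 3 in null ALPs, and means of 7.74 and 4.95 against 7.28 and 4.88. Mki67, the proliferation marker, was read in 51.4% and 30% of control and 44.3% and 38.1% of null ALPs. Of 22 S phase genes 20 were higher by sum, with 7 apart above (31.8%, against 17.1% of all genes) and a median of 0.23. That median was 0.07 without mouse 18220, -0.05 without the ALPs of mice 18219 and 18220 and -0.02 when cells were thinned before summing. The median number of S phase genes read per cell was 16 and 11 in control and 15 and 13 in null ALPs.

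**Figure D3:**
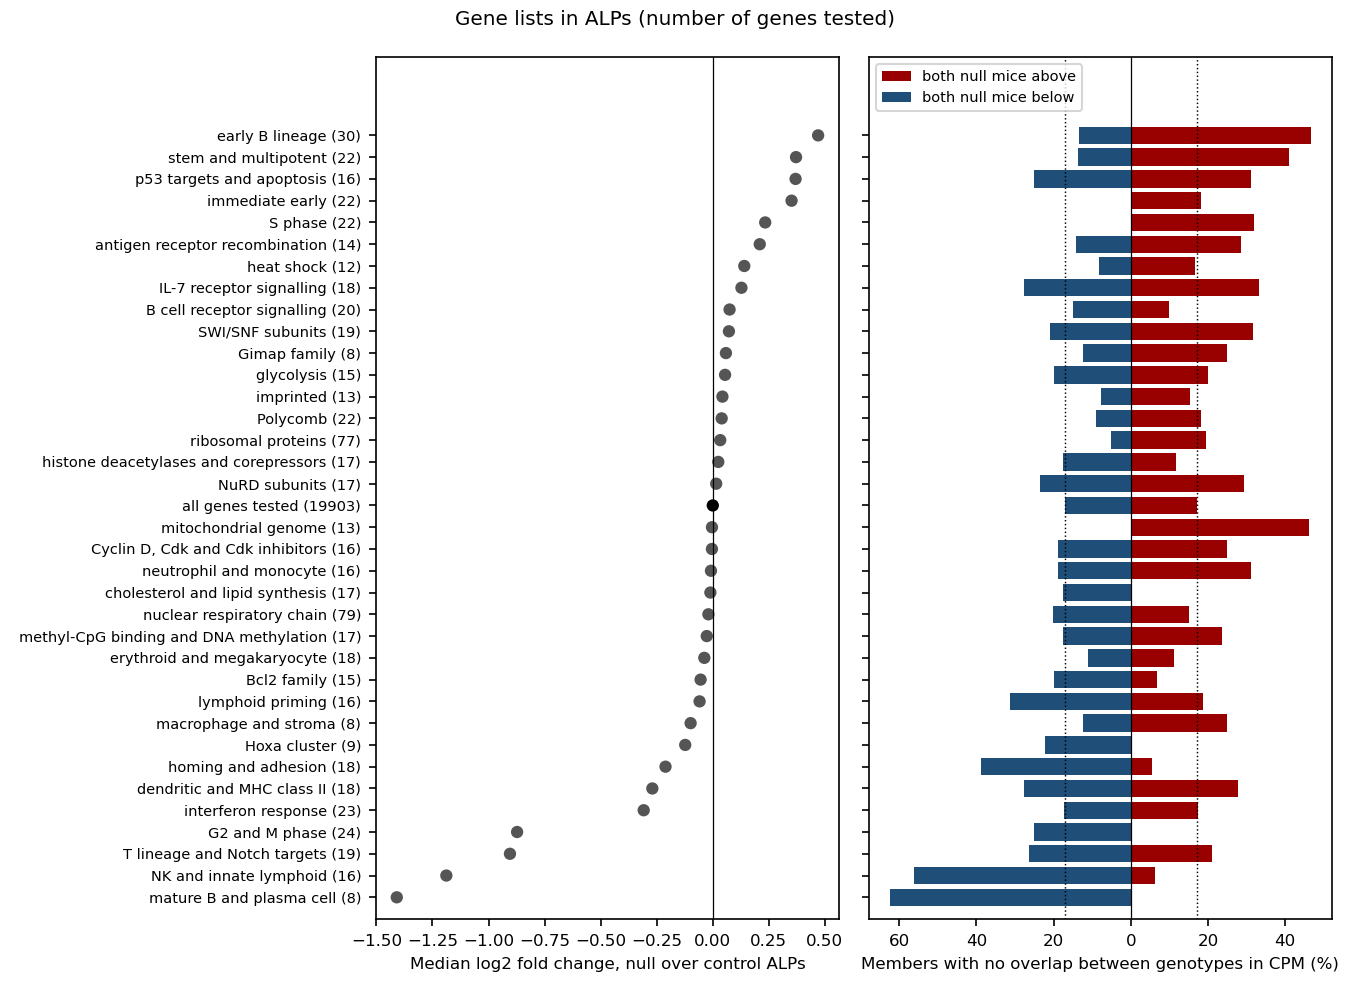
For each gene list with at least 8 genes tested (number in brackets), the median log2 fold change of null over control ALPs (left) and the percent of members whose CPM did not overlap between genotypes, with both null mice above (red) or below (blue) both control mice (right). Dotted lines mark the percents over all 19903 genes, 17.1% above and 17% below. Early B lineage genes lie at the top with a median of 0.47, and NK and innate lymphoid and mature B and plasma cell genes at the bottom.

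Counted cell by cell, the early B list was more widely read in null ALPs. At equal depth a control ALP had reads of 11.7 ± 2.70 of the 30 genes in mouse 18218 and 10.4 ± 2.52 in mouse 18220 (mean and SD over cells). A null ALP had reads of 13.2 ± 3.20 in mouse 18217 and 14.2 ± 3.76 in mouse 18219. Both null means lay above both control means (2-sided exact permutation test over mice, p = 0.33, the smallest possible). At least 13 of the 30 genes were read in 37.8% and 15.0% of control ALPs and in 62.0% and 61.9% of null ALPs. The medians were 12 and 10 in control and 13 and 14 in null ALPs, between those of LMPPs (7 to 8) and BLPs (15 to 17.5) of either genotype. The mean difference was 2.66 genes, and 1.53 without the ALPs of mice 18219 and 18220.

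**Figure D4:**
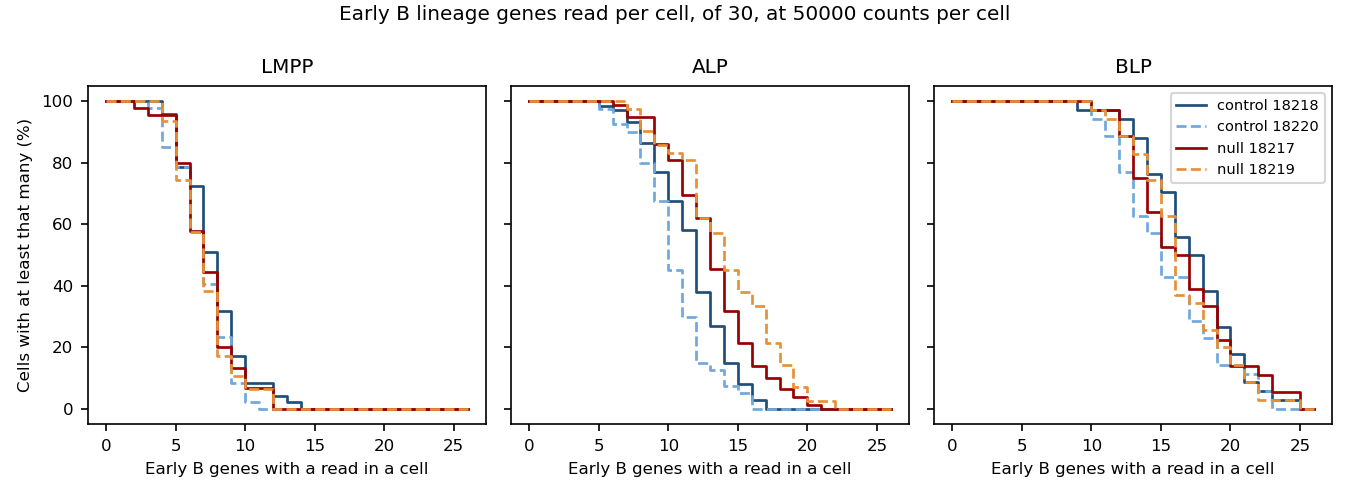
Percent of cells (y axis) with reads of at least a given number of the 30 early B lineage genes (x axis) at 50000 counts per cell, for LMPPs, ALPs and BLPs. Blue lines are control mice, red and orange lines null mice. In ALPs both null curves run to the right of both control curves, and in LMPPs and BLPs the curves of the genotypes are interleaved.

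The other early B genes were counted in cells with and without an Ebf1 read. Ebf1 was read in 23 of 74 and 9 of 40 control ALPs and in 53 of 79 and 31 of 42 null ALPs. In those cells, other genes of the list numbered 12.7 and 10.9 on average in control and 13.5 and 14.5 in null mice. In cells without an Ebf1 read they numbered 10.8 and 10.0 in control and 10.6 and 10.6 in null mice. Among cells without an Ebf1 read, the 4 mice thus lay close together in this mean, from 10.0 to 10.8 genes. Single genes could still differ there. Rag1 was read in 23.5% and 29.0% of such control ALPs and in 42.3% and 36.4% of such null ALPs. Shares of Cd79a, Ly6d and Pax5 in these cells overlapped between genotypes. The split uses a gene that itself differed by genotype, and a cell without an Ebf1 read may still hold the transcript. Whether the gain was confined to cells with Ebf1 was therefore not tested.

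Pax5 was read in 18 null ALPs, and all 18 had an Ebf1 read. Of 2 control ALPs with a Pax5 read, 1 had an Ebf1 read. Ebf1, Rag1, Cd79a and Pax5 were read together in 15 of 121 null ALPs, 7 from mouse 18217 and 8 from mouse 18219. They were read together in 0 of 74 and 0 of 40 control ALPs of mice 18218 and 18220, which allows shares of up to 4.05% and 7.5%. Pax5 was read in 0 ALPs of mouse 18218, so no joint read could occur there. All 4 genes are among those higher in null ALPs, so their joint count adds no separate support. Of null ALPs with a Rag1 read, 48 of 59 and 25 of 29 also had an Ebf1 read, against 16 of 28 and 3 of 12 in control mice. Cd79a was read in 49.1% and 74.2% of null ALPs with Ebf1, and in 19.2% and 0% of those without. In control mouse 18218 it was read in 47.8% of ALPs with Ebf1 and 11.8% of those without, and in control mouse 18220 in 0 of 9 with Ebf1 and 3 of 31 without.

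Ablim1 and Ly86 were low in null ALPs with and without an Ebf1 read. Ablim1 was read in 47.8% and 44.4% of control ALPs with Ebf1 and in 52.9% and 41.9% of those without. In null ALPs it was read in 5.66% and 0% of cells with Ebf1 and in 0% of those without in both mice. Ly86 was read in 65.2% and 66.7% of control ALPs with Ebf1 and in 64.7% and 77.4% of those without, against 30.2% and 29.0%, and 11.5% and 36.4%, in null ALPs. Apoe too was read at like shares in null ALPs with Ebf1 (32.1% and 25.8%) and without (38.5% and 27.3%). Cd63 was read in 32.1% and 45.2% of null ALPs with Ebf1 and in 65.4% and 63.6% of those without. The last set holds only 26 and 11 cells.

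ALPs were next placed between LMPPs and BLPs, using genes whose share of cells with a read differed between control LMPPs and control BLPs by at least 30 points without overlap between mice. On the 122 genes gained from LMPP to BLP, control ALPs stood 71.4% and 60.1% of the way in mice 18218 and 18220, and null ALPs 70.3% and 71.1% of the way in mice 18217 and 18219. The positions overlapped. Of these genes 44 were apart and higher in null ALPs (36.1%, against 14.7% of all genes tested by share) and 24 apart and lower (19.7%, against 17.8%). Without the early B list 109 genes were left, with positions of 74.8% and 63.7% in control and 70.5% and 70.0% in null ALPs, and 35 apart and higher (32.1%).

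On the 124 genes lost from LMPP to BLP, control ALPs stood 70.0% and 86.2% of the way and null ALPs 67.5% and 72.8%. Of these genes 39 were apart and higher in null ALPs (31.5%) and 21 apart and lower (16.9%). With at least 20 points in place of 30, 76 of 422 lost genes were apart and higher (18.0%) and 81 apart and lower (19.2%), so the lean among lost genes did not hold there. The gene choice used no ALP value.

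**Figure D5:**
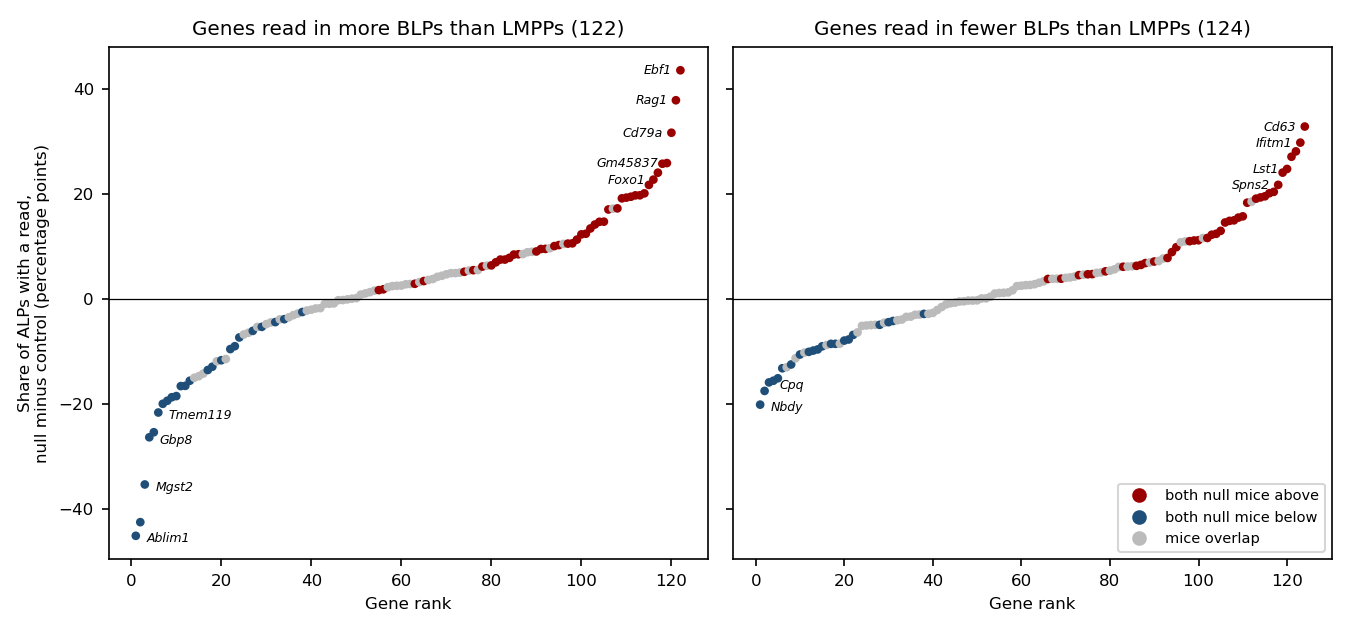
Difference in the share of ALPs with a read, null minus control in percentage points of cells (y axis), for 122 genes read in more BLPs than LMPPs (left) and 124 genes read in fewer (right), ranked on the x axis. Each point is 1 gene, red where both null mice lay above both control mice and blue where both lay below. Of the genes on the left 44 are red and 24 blue, and of those on the right 39 are red and 21 blue.

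The genotype difference in ALPs was tested against that in LMPPs and BLPs of the same mice. By edgeR 0 of 19903 genes passed in either test (0%), with 1044 at an unadjusted p under 0.05 against LMPPs (5.25%) and 1269 against BLPs (6.38%). Ebf1 was near 1 CPM in LMPPs of all 4 mice. In BLPs it stood at 267 and 227 CPM in control and 278 and 291 in null mice. The log2 fold change of Ebf1 in ALPs exceeded that in LMPPs by 2.82 ± 0.36 (edgeR adjusted p = 0.620) and that in BLPs by 2.85 ± 0.34 (edgeR adjusted p = 0.441). Rag1 exceeded its change in LMPPs by 4.42 ± 0.63 and in BLPs by 2.64 ± 0.60 on the log2 scale (edgeR adjusted p = 0.828 and 0.776). The first value rests on few LMPPs, as Rag1 was read in 3 of 47 and 2 of 47 control and 1 of 45 and 3 of 47 null cells. Null ALPs, at 154 and 217 CPM of Ebf1, stood between control ALPs and the BLPs of either genotype.

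Ablim1 and Apoe had the same direction in the neighbouring populations. Ablim1 stood at 35.5 and 11.4 CPM in control and 0.242 and 0.189 in null LMPPs, and at 67.2 and 132.5 against 0.30 and 0.360 CPM in BLPs. Apoe stood at 21.0 and 15.1 against 127 and 219 CPM in LMPPs and at 0.270 and 0.105 against 44.5 and 27.2 in BLPs. Of the 12 lower genes ranked by p, 11 were apart and lower in LMPPs (17.8% of all genes) and 7 in BLPs (17.1% of all genes). The 6 that were lower in both were Ablim1, Pld4, Tmem229b, Il18rap, Trappc1 and Ubl7. Of the 12 higher genes, 4 were apart and higher in LMPPs (16.2% of all genes) and 6 in BLPs (16.3% of all genes), with Akr1c13, Cd68 and Apoe in both. Rag1, Kmt5a, Nfat5, Slc43a1 and Mtss1 were apart and higher in neither. In LMPPs, Rag1, Kmt5a, Nfat5 and Mtss1 were apart and lower in null mice, with Nfat5 at 83.5 and 87.4 CPM in control and 52.7 and 68.8 in null LMPPs. Rag1 was at most 3.78 CPM in LMPPs, and its counts of LMPPs with a read, given above, overlapped between genotypes. Hsdl1, lower in null ALPs, was apart and higher in null LMPPs (34.5 and 20.2 against 36.8 and 37.0 CPM). The same mice gave all 3 populations, so these counts are not independent of those in ALPs. The p used for ranking also came from a fit over all 3 populations, with the spread of a gene shared among them. Genes with a small p thus tend to have close replicate mice in LMPPs and BLPs too, which makes overlap there less likely. The percents over all genes are therefore not a matched background for the counts among the ranked genes. Whether those counts exceed a matched background was not tested.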

How the data were processed

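The authors deposited raw read counts per gene and cell. GSNAP, HTSeq and build mm10 are named in the submitters' processing notes. The sources used here do not give the annotation or its strand setting, so overlapping and antisense genes cannot be separated. Cells were sorted 1 per well and made into full-length libraries without molecular identifiers, per the labels' protocols. No doublet caller was run. Of all entries, 43.19% were counts on 46078 genes, 6.126% on 92 spike-ins and 50.68% in 5 summary entries, and the last 2 kinds stayed out of library sizes and tests.

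Kept cells were added up to 12 libraries (3 populations, 4 mice). Genes were filtered with filterByExpr, scaled by TMM and tested with edgeR 4.0.16 (quasi-likelihood, R 4.3.3) over 6 groups at once (6 residual degrees of freedom), adjusted by Benjamini-Hochberg. The common biological coefficient of variation was 86.9%. SEs are approximate, the log2 fold change over the square root of F. Shares (at least 1 read after thinning to 50000 counts, mean share of at least 5%) were tested with limma 3.58.1 on the arcsine scale. Upper limits for a share of 0 use 3 counts and cover counting error only. Both tests were run on simulated data with 50 changed genes per size. The edgeR test recovered 1 at 2-fold, 14 at 4-fold, 35 at 16-fold and 48 at 64-fold. The limma test on shares recovered 0 at 10 and at 20 points, 11 at 40 points and 44 at 60 points. Changes of 4-fold or less and share differences of 40 points or less were thus mostly missed.

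The members, lists and tests were chosen with earlier results of these data known. Named genes were Mbd3, the gate genes, every gene past either test, up to 12 per direction by edgeR p (mean of at least 20 CPM, no overlap in CPM or share, a share of at least 10% in each mouse of the higher genotype), up to 8 per direction by share difference, and up to 3 per list. Others named were chosen after their values were seen. Alternatives were DESeq2 1.42.0, limma-voom, other scalings, filters, depths and cell limits, and leaving out each mouse. Each mouse gave cells of all populations, and within ALPs the mouse is nested in genotype. The random mouse block had a correlation of 0.0223 on summed counts and 0.154 on shares.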

Additional observations from a re-analysis of the deposited data

How the results depend on the processing

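On summed counts the number of genes called in ALPs was 1 by edgeR, and 276 by DESeq2, 6 with no filter on low counts, and 0 by limma-voom, with ALP libraries alone, with column layout as a block and without ALPs of mice 18219 and 18220. It was 0 without each of the mice in turn. The 1 gene called was Ablim1 when cells were thinned before summing and Pax5 when the highest cell of each gene was left out. By shares the number was 4, and 0 at a depth of 200000, with another random draw, with ALP libraries alone and without ALPs of mice 18219 and 18220, and 2 with a mean share of at least 20%. Without 1 mouse it was 0 to 13, the 13 without mouse 18218. Mouse is nested in genotype, so the replicate block was fitted as a random effect: limma-voom with the replicate block called 0 genes on summed counts, limma called 2 on shares (Txn1 and Tspan13, with Ablim1 and Apoe lost), and the differences of ALP from LMPP and BLP gave 0 and 1 (a predicted gene). DESeq2 called 239 and 351 genes in those 2 differences, where edgeR called 0. Without 1 mouse, the log2 fold change of Kit ran from -0.055 (mouse 18218 left out) to 1.08, and that of Ly6d from -1.26 to 0.61, above 0 without mouse 18217 (0.012) or 18220. The early B genes per cell differed by 2.66 between genotypes, by 1.53 without ALPs of mice 18219 and 18220, and by 2.03 to 3.29 without 1 mouse. Position differed by 4.94 points on gained genes (0.98 to 7.08 over alternatives) and by -7.98 points on lost genes (-10.7 to 0.34, the last with at least 20 points). Of the values of single genes, 526 on summed counts kept direction and side of the threshold, 36 passed anew, 11 no longer passed and 3 turned. On shares, 205 kept both, 43 no longer passed and 3 passed anew. With 2 mice a side, a call that is lost says little on its own. The causes were not tested.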
